A study of Mus musculus with 16 samples.

Results

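The transcription factor p53 (gene Trp53) and 9 genes that it is known to switch on (Cdkn1a, Mdm2, Sesn1, Sesn2, Ccng1, Bbc3, Bax, Sco2 and Eda2r) were followed in mouse skeletal muscle by RNA sequencing. The genes were picked by their symbol, as p53 and known targets of it, with earlier results of these data known. They are 10 of the 55487 genes in the table, and all 10 passed the filter on low counts, which left 17490 genes for testing. The muscle came from wild-type (WT) mice and from mice labelled CHCHD4 Tg (Tg below), in each case either trained on a treadmill or left without training. This gave 4 groups of 4 libraries: WT untrained, WT trained, Tg untrained and Tg trained. CHCHD4 is an import factor of the mitochondrial intermembrane space. The labels give neither the muscle, the strain, the sex nor the age of the mice, nor the promoter of the transgene or the length of training. Nothing in them ties each library to a mouse of its own, so the p-values below reflect the spread between libraries, which may be technical.

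p53 protein is made and broken down all the time. Mdm2, itself a p53 target, marks it for degradation, and most of its regulation by DNA damage, nutrient shortage or other stress acts on the protein, not on the Trp53 transcript. Stabilised p53 binds pairs of half-sites in DNA and raises genes that stop the cell cycle, start cell death, restrain growth signalling or serve mitochondria. The transcripts of its targets are therefore often read as a sign of p53 activity, although many of them also answer to other factors, among them the glucocorticoid receptor and the Foxo factors that act in wasting muscle.

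A p53 binding site can tie a target's transcript to p53 directly, and it can lie in the promoter or outside it. The RefSeq promoter windows of GRCm38.p6, from 250 bases before to 50 bases after each start, were searched for such sites. The search reads letters and does not show binding. A match was a pair of 10-base p53 half-sites at most 13 bases apart with at most 1 mismatch, none of them at the fixed C and G of each half-site. The half-site reads alike on both strands. All 10 genes had a window, and those of Cdkn1a and Ccng1 held a match. Of 11387 tested genes with a window, 74 (0.65%) held one. Among p53 targets outside the 10, 3 of 44 with a window did (Gtse1, Rps27l and Pml). Unlike the 11387, these 44 include genes too low to be tested, Gtse1 among them. Capitals mark the 4-letter core of each half-site in the matches of the cell cycle inhibitor Cdkn1a and of Ccng1.
Cdkn1a, contiguous half-sites, chr17:29090928-29090947, plus strand, 1 mismatch: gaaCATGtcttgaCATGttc
Cdkn1a, half-sites 12 bases apart, chr17:29090906-29090937, plus strand, 0 mismatches: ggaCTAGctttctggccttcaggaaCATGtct
Ccng1, contiguous half-sites, chr11:40755462-40755481, minus strand, 1 mismatch: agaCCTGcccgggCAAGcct
The Cdkn1a matches share bases, and the contiguous one ended 32 bases before a RefSeq start of the gene and 2822 bases before a second start. The Ccng1 match ended 176 bases before its start. The full windows of both genes follow, with the contiguous match in capitals, to show where it lies in the promoter.
Cdkn1a window, chr17:29090729-29091028, plus strand: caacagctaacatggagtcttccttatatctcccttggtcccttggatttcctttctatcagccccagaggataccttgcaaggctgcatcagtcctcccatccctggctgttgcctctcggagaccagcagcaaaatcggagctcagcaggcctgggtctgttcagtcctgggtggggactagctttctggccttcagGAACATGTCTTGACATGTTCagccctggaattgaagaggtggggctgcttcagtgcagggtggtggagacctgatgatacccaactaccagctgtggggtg
Ccng1 window, chr11:40755237-40755536, minus strand: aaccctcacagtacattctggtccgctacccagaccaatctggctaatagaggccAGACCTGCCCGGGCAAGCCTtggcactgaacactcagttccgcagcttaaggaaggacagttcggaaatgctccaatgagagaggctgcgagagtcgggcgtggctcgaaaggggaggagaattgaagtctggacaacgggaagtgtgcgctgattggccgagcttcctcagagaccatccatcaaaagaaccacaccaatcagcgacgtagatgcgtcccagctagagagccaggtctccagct
No match in the other 8 genes says only that these letters are not in these windows, since p53 sites often lie in introns or far upstream.

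Library totals ran from 40888325 to 61703724 counts. Levels below are normalised counts (CPM) after scaling by edgeR's trimmed mean of M-values (TMM). Chchd4, the gene of the transgene label, ran from 6.88 to 8.98 CPM in the 8 WT libraries and from 18.1 to 22.2 CPM in the 8 Tg libraries, with no overlap. All 8 muscle fibre markers were detected, at a summed 123900 to 190000 CPM. The lowest of these sums belonged to WT untrained replicate 2, a library that also stood apart for several p53 targets. The summed level of 5 endothelial markers, all tested, ran from 96.65 to 134 CPM in WT untrained, 117 to 140.5 in WT trained, 121 to 157 in Tg untrained and 135 to 157 in Tg trained libraries. Adipocyte markers (5 of 5 tested) summed to 13.7 to 51.9 CPM in WT untrained, 4.46 to 11.9 in WT trained, 11.8 to 49.5 in Tg untrained and 2.35 to 11.47 in Tg trained libraries. Tendon and cartilage markers (5 of 5 tested) summed to 51.7 to 75.4, 6.83 to 58.5, 52.2 to 132.5 and 27.3 to 62.3 CPM in the same order, and macrophage markers (6 of 6 tested) to 29.5 to 49.0, 19.96 to 67.1, 19.1 to 35.7 and 17.2 to 26.2 CPM. Adipocyte and tendon sums thus had lower medians in both trained groups. Macrophage medians were also lower in both, at 32.8 against 34.3 CPM in WT and 18.45 against 30.6 CPM in Tg. Fibroblast medians (5 of 5 markers tested) were 403.5 against 605.6 CPM in WT and 435 against 509.5 CPM in Tg. Medians of muscle fibre, satellite cell and endothelial sums were higher in both trained groups. The part of these cells in the results below was not tested. In bulk muscle, fewer cells of a type and less RNA per cell cannot be told apart.

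None of the 10 genes changed past the threshold in any comparison. edgeR's quasi-likelihood test with Benjamini-Hochberg adjustment over all 17490 genes called 0 of 10 for training in WT, where it called 0.143% of all genes at an adjusted p under 0.05. It called 0 of 10 for training in Tg (0% of all genes), 0 of 10 for Tg against WT untrained (0.743%) and 0 of 10 for Tg against WT trained (0.0114%). For the difference of the training responses between genotypes it called 0 of 10 (0.0515%), for training over both genotypes 0 of 10 (0.457%) and for Tg against WT over both training states 0 of 10 (1.12%). With shares this low among all genes, a count of 0 in 10 does not set the p53 genes apart from the rest. Over the 70 tests of these genes, 7 had an unadjusted p under 0.05, and the lowest adjusted p was 0.145. DESeq2 also called 0 of 70, with 7 at an unadjusted p under 0.05, and limma-voom called 0 of 70, with 4. The pairwise comparisons share libraries (both training in WT and Tg against WT untrained use the WT untrained group), so their values are given side by side without counting genes they have in common.

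**Figure D1:**
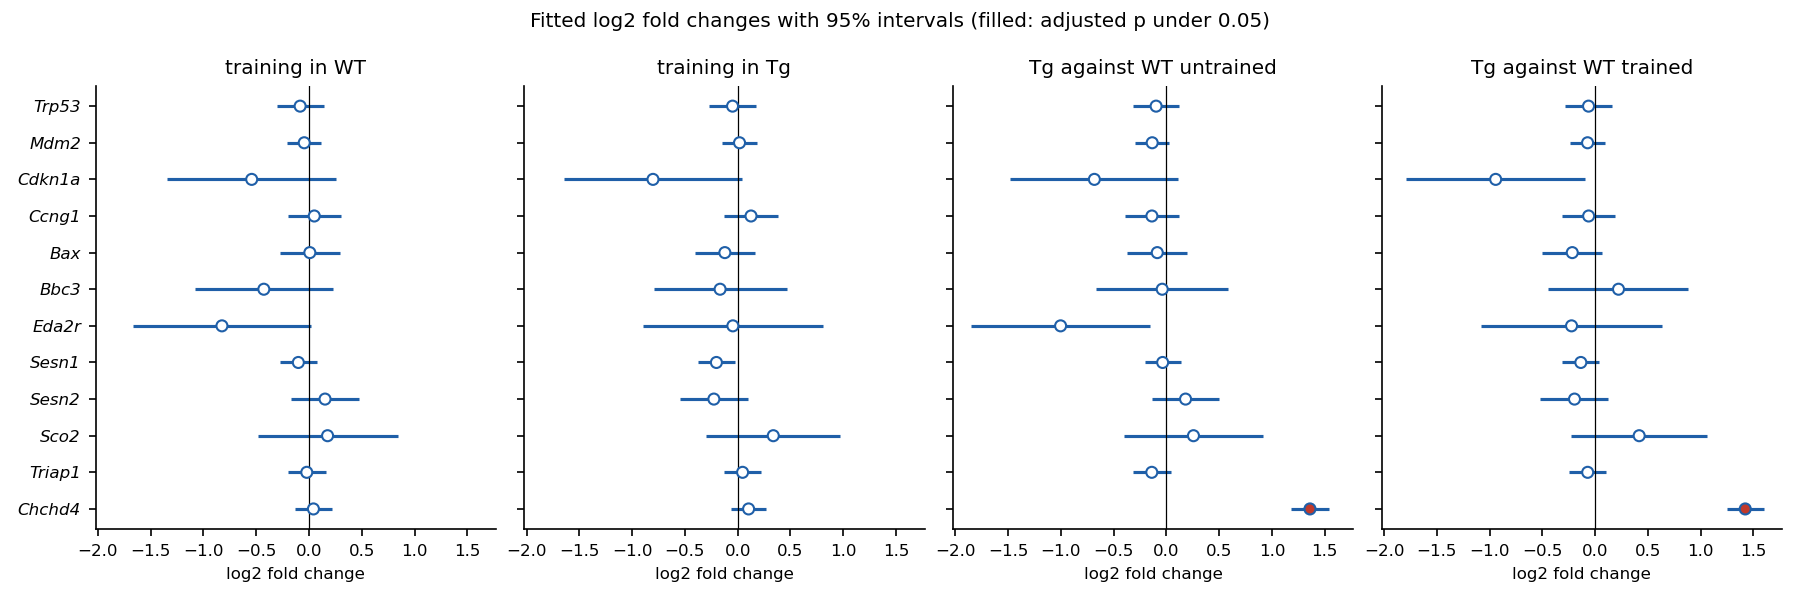
Fitted log2 fold changes (x axis) of the 10 p53 genes, Triap1 and Chchd4 with 95% intervals, 1 panel per pairwise comparison, each of 4 libraries against 4. No p53 gene has a filled point (adjusted p under 0.05), while Chchd4 lies at 1.36 and 1.42 in the Tg against WT panels, and the widest intervals belong to Cdkn1a, Eda2r, Bbc3 and Sco2.

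The fold changes of most of these genes were small. For training in WT, 4 were above 0 and 6 below, with a median log2 fold change of -0.07, beside 0.01 over all tested genes. For training in Tg, 3 were above and 7 below, with a median of -0.09, beside 0.00. Tg against WT gave 2 above and 8 below in both training states, with medians of -0.09 untrained and -0.10 trained, beside 0.00 for all genes in each. Among all tested genes 51.3%, 50.6%, 50.8% and 49.1% were above 0 in these comparisons, in the order given. Some of these signs rested on WT untrained replicate 2. Without it Trp53 (0.02), Bax (0.04) and Bbc3 (0.16) turned positive in Tg against WT untrained. In training in WT, Trp53 (0.03), Mdm2 (0.04) and Eda2r (0.09) turned positive and Ccng1 (-0.09) negative. The groups of 4 libraries did not overlap for 2 of 10 genes in training in Tg, Cdkn1a and Sesn1, both lower in trained muscle. Among all tested genes 9.18% were free of overlap in that comparison. In the other pairwise comparisons 0 of 10 were free of overlap, against 4.39% of all genes for training in WT, 8.49% for Tg against WT untrained and 5.69% for Tg against WT trained.

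**Figure D2:**
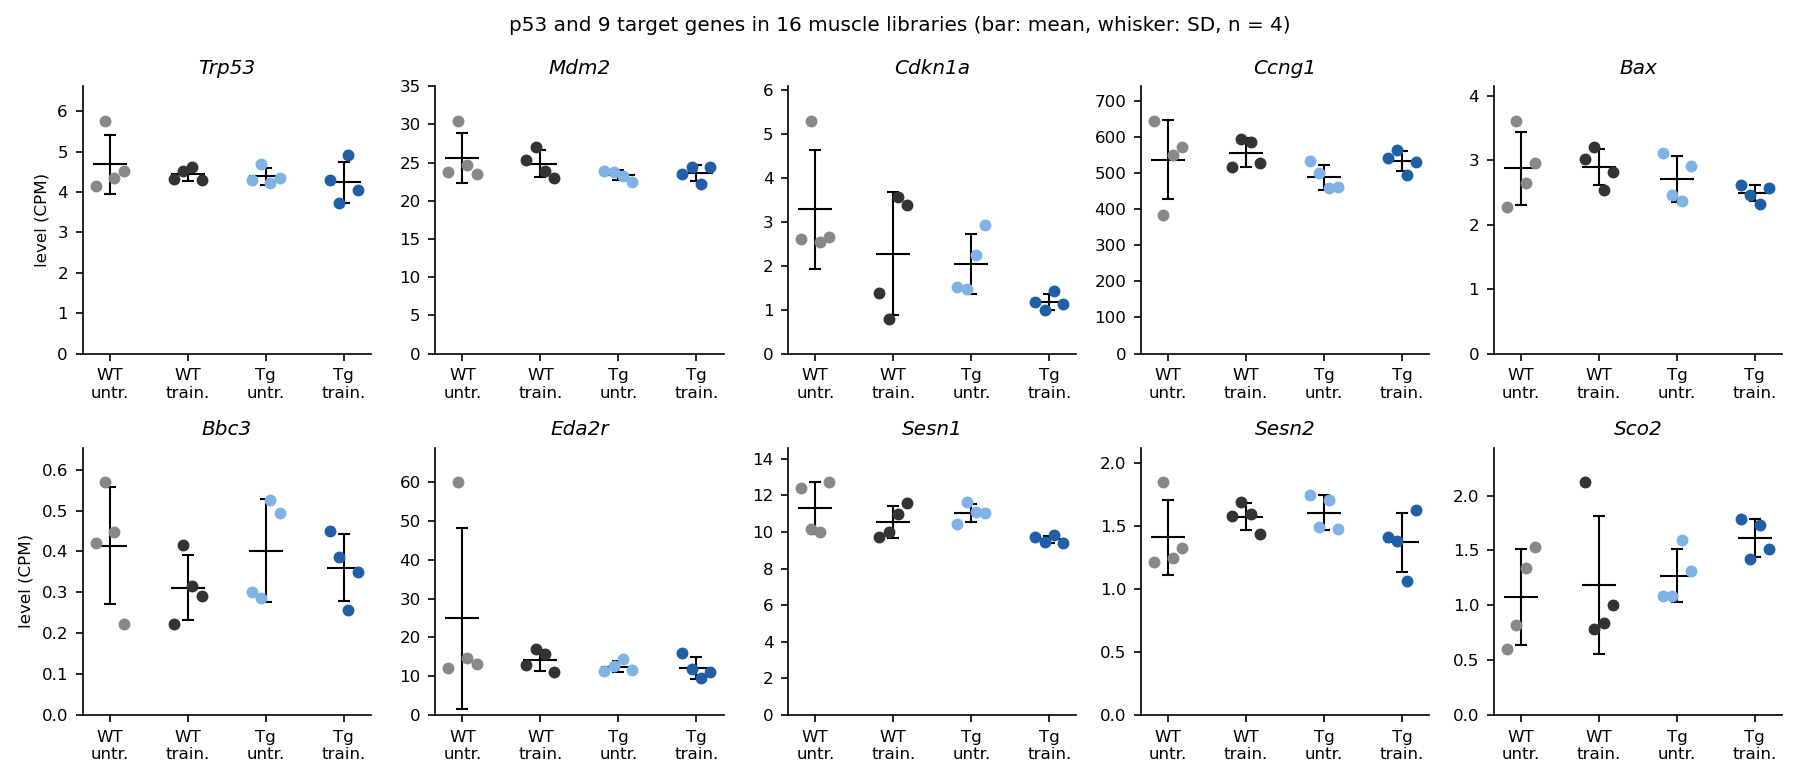
Levels (y axis, CPM, starting at 0) of the 10 p53 genes in each of the 16 libraries, by group, with the group mean (bar) and SD (whisker, n = 4). WT untrained replicate 2 is the highest point for Cdkn1a (5.30 CPM) and Eda2r (59.98 CPM). For Cdkn1a the Tg trained libraries, at 0.982 to 1.42 CPM, are the tightest group and the lowest by mean. The lowest single library is WT trained (0.787 CPM).

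Levels differed far more between the genes than between the groups. Per kilobase of merged exons, Ccng1 stood first with 150 ± 17.6 CPM per kb (mean ± SD, n = 16 libraries). Mdm2 followed with 4.79 ± 0.392 CPM per kb. Eda2r (2.7 ± 2.03) and Sesn1 (2.67 ± 0.260) came next on this scale. The Eda2r mean and SD rest on WT untrained replicate 2, and without that library Eda2r had 2.20 ± 0.368 and Sesn1 2.68 ± 0.267 CPM per kb (n = 15), with ranges that overlapped (1.60 to 2.88 and 2.37 to 3.19). Bax had 1.74 ± 0.234 CPM per kb. Trp53 (1.10 ± 0.111) and Sco2 (1.03 ± 0.337) did not differ beyond their spread, and nor did Cdkn1a (0.617 ± 0.339) and Sesn2 (0.429 ± 0.0613). Bbc3 was lowest at 0.175 ± 0.0508 CPM per kb, on 11 to 32 counts per library, the fewest of the 10.

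Trp53, at chr11:69580359-69591873 on mm10 (plus strand), lay within a narrow range. Its level was 4.14, 5.76, 4.34 and 4.51 CPM in WT untrained replicates 1 to 4, and 4.32, 4.52, 4.61 and 4.29 CPM in WT trained. It was 4.29, 4.69, 4.21 and 4.35 CPM in Tg untrained, and 4.29, 3.72, 4.92 and 4.04 CPM in Tg trained. All 4 groups overlapped, and the highest library was WT untrained replicate 2. The log2 fold change was -0.08 for training in WT (95% interval -0.31 to 0.14, adjusted p = 0.825, edgeR), -0.05 for training in Tg (-0.27 to 0.17), -0.10 for Tg against WT untrained (-0.32 to 0.12) and -0.06 for Tg against WT trained (-0.29 to 0.16). Its sign turned in each of the 4 when a library was left out (WT untrained replicate 2 for training in WT and for Tg against WT untrained, Tg trained replicate 2 for the other pair). The Trp53 transcript does not measure p53 protein.

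Mdm2, the E3 ubiquitin ligase that limits p53, lies at chr10:117688875-117710758 (minus strand). It measured 23.8, 30.45, 24.7 and 23.5 CPM in WT untrained, and 25.4, 27.0, 23.9 and 23.0 CPM in WT trained. The Tg libraries measured 23.9, 23.7, 23.2 and 22.5 CPM untrained, and 23.5, 24.4, 22.1 and 24.5 CPM trained. Apart from WT untrained replicate 2 every library lay between 22.1 and 27.0 CPM. Tg over WT gave a log2 fold change of -0.14 untrained (95% interval -0.30 to 0.03, adjusted p = 0.412, edgeR) and -0.07 trained (-0.24 to 0.09, adjusted p = 0.899). Training gave -0.05 in WT (-0.21 to 0.12) and 0.02 in Tg (-0.15 to 0.18). These were the tightest intervals among the 10 genes. Of 21 p53 regulators, Trp53 and Mdm2 included, 19 were tested and 0 were called in any of the 7 comparisons, with 0 to 2 at an unadjusted p under 0.05. By unadjusted p the leading one was Hipk2, a kinase that phosphorylates p53, with a log2 fold change of Tg over WT in both training states of -0.36 (SE 0.10, adjusted p = 0.0774, edgeR). Without WT untrained replicate 2 it was -0.27 and passed the threshold (adjusted p = 0.0448), and training over both genotypes then passed as well, at 0.39 (adjusted p = 0.0135) in place of 0.29 (adjusted p = 0.187). Each of these Hipk2 calls stood in 1 of the 16 fits that left out 1 library, with adjusted p up to 0.148 and 0.335. Among all genes the fit without that library called 351 in place of 196, and 218 in place of 80. DESeq2 on all libraries also called Hipk2 for Tg over both training states (-0.36, adjusted p = 0.02), among 644 genes. For training over both genotypes edgeR called it without the libraries over 10 CPM of the liver gene Alb (0.395, adjusted p = 0.0127), among 584 genes. It did so too without those over 10 CPM of the slow fibre myosin Myh7 (0.434, adjusted p = 0.0415), among 41 genes. Both sets include WT untrained replicate 2.

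Cdkn1a, which encodes the cyclin-dependent kinase inhibitor p21, had the largest fitted difference of the 10 genes for training in Tg, for Tg against WT trained and for both comparisons over all 16 libraries, yet none passed the threshold. The gene lies at chr17:29090976-29100727 (plus strand). It measured 2.62, 5.30, 2.55 and 2.66 CPM in WT untrained, and 1.38, 0.787, 3.56 and 3.37 CPM in WT trained. Tg muscle had 1.53, 1.47, 2.25 and 2.93 CPM untrained, and 1.18, 0.982, 1.42 and 1.13 CPM trained. WT trained muscle was split, with replicate 1 in the range of Tg trained, replicate 2 below it, and replicates 3 and 4 above every WT untrained library but replicate 2. The Tg trained libraries were all below the Tg untrained ones.

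For training, Cdkn1a had a fitted log2 fold change of -0.54 in WT (SE 0.38, adjusted p = 0.667, edgeR) and of -0.80 in Tg (SE 0.40, 95% interval -1.65 to 0.04, adjusted p = 0.478). The difference between these responses was -0.26 (95% interval -1.42 to 0.90, adjusted p = 0.962). Tg against WT gave -0.68 untrained (SE 0.38, adjusted p = 0.395) and -0.94 trained (SE 0.40, 95% interval -1.79 to -0.09, adjusted p = 0.589). Over both training states it gave -0.81 (SE 0.28, 95% interval -1.40 to -0.23, unadjusted p = 0.00924, adjusted p = 0.145), the lowest adjusted p among the 10 genes. Leaving out WT trained replicate 2 made this -0.95 with an adjusted p of 0.0488, and leaving out WT untrained replicate 2 made it -0.64 with an adjusted p of 0.197. The former was the 1 call of Cdkn1a among the 16 fits that left out 1 library. That fit called 374 of all genes, in place of 196. The fitted value of Tg against WT untrained went from -0.68 to -0.35 without WT untrained replicate 2, and that of training in WT from -0.54 to -0.21. The annotation places a gene model of unknown status (AC167363.2) on the opposite strand over 1046 bases of Cdkn1a, and the use of strand in the counting is not stated in the labels.

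Ccng1, cyclin G1, a p53 target that is abundant in muscle, lies at chr11:40748552-40755311 (minus strand). It measured 644, 383, 550 and 571 CPM in WT untrained, and 516, 594, 586 and 527 CPM in WT trained. In Tg muscle it was 532, 499, 459 and 461 CPM untrained, and 542, 563, 495 and 530 CPM trained. The highest and the lowest of all 16 libraries were both WT untrained, replicates 1 and 2, so that group covered the range of the other 3. Its log2 fold change was 0.05 for training in WT (95% interval -0.20 to 0.30), 0.13 for training in Tg (-0.13 to 0.38), -0.14 for Tg against WT untrained (-0.39 to 0.12) and -0.06 for Tg against WT trained (-0.32 to 0.19), with adjusted p of 0.619 or more in edgeR. Without WT untrained replicate 2 Tg against WT untrained became -0.27 (adjusted p = 0.0975) and training in WT turned to -0.09. Ccng1 and Cdkn1a, the genes with a promoter match, thus had no called change.

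Among the genes of cell death, Bax and Bbc3 had no called change and Eda2r owed its spread to 1 library. Bax, a pore-forming protein of the outer mitochondrial membrane, lies at chr7:45461697-45466898 (minus strand). It measured 2.28, 3.61, 2.64 and 2.96 CPM in WT untrained, 3.01, 3.196, 2.54 and 2.81 CPM in WT trained, 3.11, 2.46, 2.36 and 2.91 CPM in Tg untrained, and 2.62, 2.46, 2.32 and 2.56 CPM in Tg trained. All groups overlapped, and the Tg trained libraries were the least spread. The fitted log2 fold change ran from -0.22 (Tg against WT trained, 95% interval -0.50 to 0.07) to 0.01 (training in WT, -0.28 to 0.29) over the 4 pairwise comparisons, with adjusted p of 0.755 or more in edgeR. A coding gene model on the same strand, Gm45808, overlaps 915 bases of Bax, so reads could be divided between them.

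Bbc3 encodes Puma, which frees Bax by binding its antagonists, and lies at chr7:16308393-16318205 (plus strand). It measured 0.420, 0.569, 0.448 and 0.222 CPM in WT untrained, 0.223, 0.417, 0.314 and 0.291 CPM in WT trained, 0.301, 0.287, 0.527 and 0.494 CPM in Tg untrained, and 0.451, 0.386, 0.256 and 0.350 CPM in Tg trained. All groups overlapped. The 95% intervals were wide, from -1.08 to 0.23 around -0.43 for training in WT and from -0.66 to 0.58 around -0.04 for Tg against WT untrained.

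Eda2r, a receptor of the tumour necrosis factor receptor family that binds ectodysplasin A2, lies at chrX:97333840-97377216 (minus strand). It measured 12.05, 59.98, 14.6 and 13.1 CPM in WT untrained, and 12.8, 17.0, 15.7 and 11.03 CPM in WT trained. The Tg libraries had 11.2, 12.6, 14.51 and 11.5 CPM untrained, and 16.1, 11.8, 9.45 and 11.03 CPM trained. WT untrained replicate 2 was 3.53 times the next highest library, and the other 15 libraries lay between 9.45 and 17.0 CPM with all groups overlapping. The log2 fold change of Tg against WT untrained was -1.003 (SE 0.40, adjusted p = 0.234, edgeR) with that library and -0.08 (SE 0.16, adjusted p = 0.865) without it. Training in WT went from -0.83 (adjusted p = 0.532) to 0.09 (adjusted p = 0.916). In the comparisons without WT untrained libraries it was -0.05 for training in Tg (95% interval -0.90 to 0.81) and -0.22 for Tg against WT trained (-1.08 to 0.63).

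The sestrins restrain mTORC1, the kinase complex that promotes protein synthesis and growth. Sesn1, at chr10:41809935-41908424 (plus strand), measured 12.4, 10.2, 9.997 and 12.7 CPM in WT untrained, and 9.71, 9.98, 11 and 11.6 CPM in WT trained. The Tg values were 10.4, 11.6, 11.1 and 11.03 CPM untrained, and 9.73, 9.47, 9.82 and 9.42 CPM trained. The Tg trained libraries all lay below the Tg untrained ones, by a small margin and with the smallest SD of the 4 groups (0.194 CPM). Training in Tg gave a log2 fold change of -0.20 (SE 0.08, 95% interval -0.38 to -0.03, adjusted p = 0.376, edgeR), and over both genotypes -0.15 (SE 0.06, adjusted p = 0.253). In WT it was -0.10 (95% interval -0.27 to 0.07), and the difference between the genotypes was -0.10 (-0.35 to 0.14, adjusted p = 0.942). A gene model on the same strand, 9930024M15Rik, overlaps 2584 bases of the Sesn1 locus, so reads could be divided between them.

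Sesn2, at chr4:132492032-132510501 (minus strand), measured 1.22, 1.85, 1.25 and 1.33 CPM in WT untrained, and 1.58, 1.69, 1.60 and 1.44 CPM in WT trained. In Tg it measured 1.75, 1.495, 1.71 and 1.48 CPM untrained, and 1.42, 1.39, 1.06 and 1.63 CPM trained. In WT the untrained libraries other than replicate 2 were the lower ones, and in Tg the trained libraries other than replicate 4 were. Training gave a log2 fold change of 0.15 in WT (95% interval -0.17 to 0.48) and of -0.23 in Tg (-0.55 to 0.09). The difference of these responses was -0.38 (SE 0.21, 95% interval -0.83 to 0.08, adjusted p = 0.846, edgeR), and -0.54 (SE 0.19, adjusted p = 0.431) without WT untrained replicate 2. Another gene model, Gm12981, overlaps 6089 bases of the Sesn2 locus on the same strand.

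Sco2, which helps to assemble cytochrome c oxidase and is the one of the 10 with a role in the respiratory chain, lies at chr15:89371637-89373846 (minus strand). It measured 0.599, 0.818, 1.34 and 1.53 CPM in WT untrained, and 2.12, 0.787, 0.838 and 0.999 CPM in WT trained. In Tg it measured 1.08, 1.09, 1.60 and 1.32 CPM untrained, and 1.78, 1.42, 1.73 and 1.52 CPM trained. The Tg trained libraries lay above all WT trained ones but replicate 1, which was the highest of the 16. The log2 fold change of Tg against WT was 0.26 untrained (95% interval -0.40 to 0.91) and 0.42 trained (-0.23 to 1.06, adjusted p = 0.804, edgeR), and 0.87 for the latter without WT trained replicate 1, with an adjusted p between 0.355 and 0.978 over the single-library omissions. Over both training states it was 0.34 (SE 0.22, adjusted p = 0.453). Sco2 shares 1916 bases with Tymp on the same strand and 1190 bases with Ncaph2 on the opposite strand, so its counts are uncertain. Triap1, a small mitochondrial protein that p53 is known to raise and that carries lipid in the intermembrane space, ran from 3.65 to 4.82 CPM over the 16 libraries. Its log2 fold change was -0.02 for training in WT (95% interval -0.20 to 0.16), 0.05 for training in Tg (-0.13 to 0.22), -0.14 for Tg against WT untrained (-0.32 to 0.04) and -0.07 for Tg against WT trained (-0.25 to 0.11).

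A wider set of 7 lists, 83 genes of p53 regulators and targets with the 10 included, had 74 tested genes. The untested ones include the cell death gene Pmaip1 and the stress hormone gene Gdf15, which had at most 11 and 3 counts in any library. For training in WT 0 of 74 were called (5 at an unadjusted p under 0.05, 39 above 0, 35 below), and for training in Tg 0 of 74 (9 at an unadjusted p under 0.05, 33 above, 41 below). For Tg against WT trained 0 were called (9 at an unadjusted p under 0.05), for the difference of the training responses 0 (6) and for Tg over both training states 0 (15). For Tg against WT untrained 1 was called (18 at an unadjusted p under 0.05) and for training over both genotypes 1 (13). Among all tested genes an unadjusted p under 0.05 was found for 9.55% in training in WT, 11.1% in training in Tg, 16.2% in Tg against WT untrained and 7.98% in Tg against WT trained. It was found for 6.03% in the difference of the training responses, 14.4% in training over both genotypes and 17.2% in Tg over both training states. Over all of the 7 comparisons the median log2 fold change of the 74 genes stayed between -0.03 and 0.01, against -0.01 to 0.01 for all tested genes.

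One gene of the 74 rose in Tg against WT untrained muscle. This was Plk2, a polo-like kinase known as a p53 target and as an early response gene. It measured 3.70, 3.88, 4.53 and 4.35 CPM in WT untrained and 6.72, 7.27, 8.81 and 5.93 CPM in Tg untrained, so the groups did not overlap. Its log2 fold change was 0.81 (SE 0.16, adjusted p = 0.0332, edgeR), the 1 call in 74 standing beside 0.743% of all genes. In trained muscle the groups overlapped, at 4.64 to 7.02 CPM in WT and 4.60 to 8.01 CPM in Tg. The call stood in 7 of the 16 fits that left out 1 library, with adjusted p from 0.0239 to 0.0959. In the same comparison 4 of 11 immediate early genes were called higher, among them Egr1 with a log2 fold change of 1.97 (adjusted p = 0.038) and Fos with 2.36 (adjusted p = 0.0498). Plk3, a relative of Plk2, had 0.779, 3.56, 0.707 and 0.564 CPM in WT untrained and 1.57, 1.80, 2.31 and 1.79 CPM in Tg untrained. Its log2 fold change was 0.39 (SE 0.43, adjusted p = 0.71), not called, and 1.45 (SE 0.23, adjusted p = 0.00801) without WT untrained replicate 2. Without that library Plk2 had 0.78 and was not called (adjusted p = 0.0609). The death receptor gene Tnfrsf10b gave 0.81 (adjusted p = 0.0697). The Egr1 call stood in 9 and the Fos call in 3 of the 16 fits that left out 1 library. The part of the early response genes in the levels of Plk2 and Plk3 was not tested.

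One gene of the 74 fell with training over both genotypes, Dram1, a lysosomal membrane protein of autophagy. It measured 1.16, 1.65, 1.72 and 1.31 CPM in WT untrained and 0.632, 0.973, 0.812 and 1.19 CPM in WT trained. In Tg it had 1.79, 1.35, 1.20 and 0.823 CPM untrained and 0.709, 0.614, 0.787 and 0.660 CPM trained. The Tg groups did not overlap, and in WT only the highest trained library reached into the untrained range. The log2 fold change over both genotypes was -0.80 (SE 0.16, adjusted p = 0.0439, edgeR), the 1 call in 74 standing beside 0.457% of all genes, and the call stood in 3 of the 16 fits that left out 1 library, with adjusted p from 0.0154 to 0.111. Markers of adipocytes, of tendon and cartilage, of macrophages and of fibroblasts also had lower median sums in both trained groups. Their part in the Dram1 value was not tested. Btg2, an antiproliferative p53 target that also belongs among the early response genes, had the largest value for training in Tg, -1.59 (SE 0.34, adjusted p = 0.14). It measured 18.1, 18.9, 33.9 and 42.7 CPM in Tg untrained and 9.60, 8.97, 9.74 and 9.57 CPM in Tg trained muscle, so the groups did not overlap. DESeq2 called it, with an adjusted p of 0.00759, and so did edgeR without WT untrained replicate 2 (adjusted p = 0.0496). The edgeR call stood in 1 of the 16 fits that left out 1 library. Among all genes DESeq2 called 132 for training in Tg and that edgeR fit 93, where edgeR on all libraries called 0. All 11 immediate early genes were below 0 in this comparison, with a median log2 fold change of -1.40 and 0 called, and their part in the Btg2 value was not tested.

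**Figure D3:**
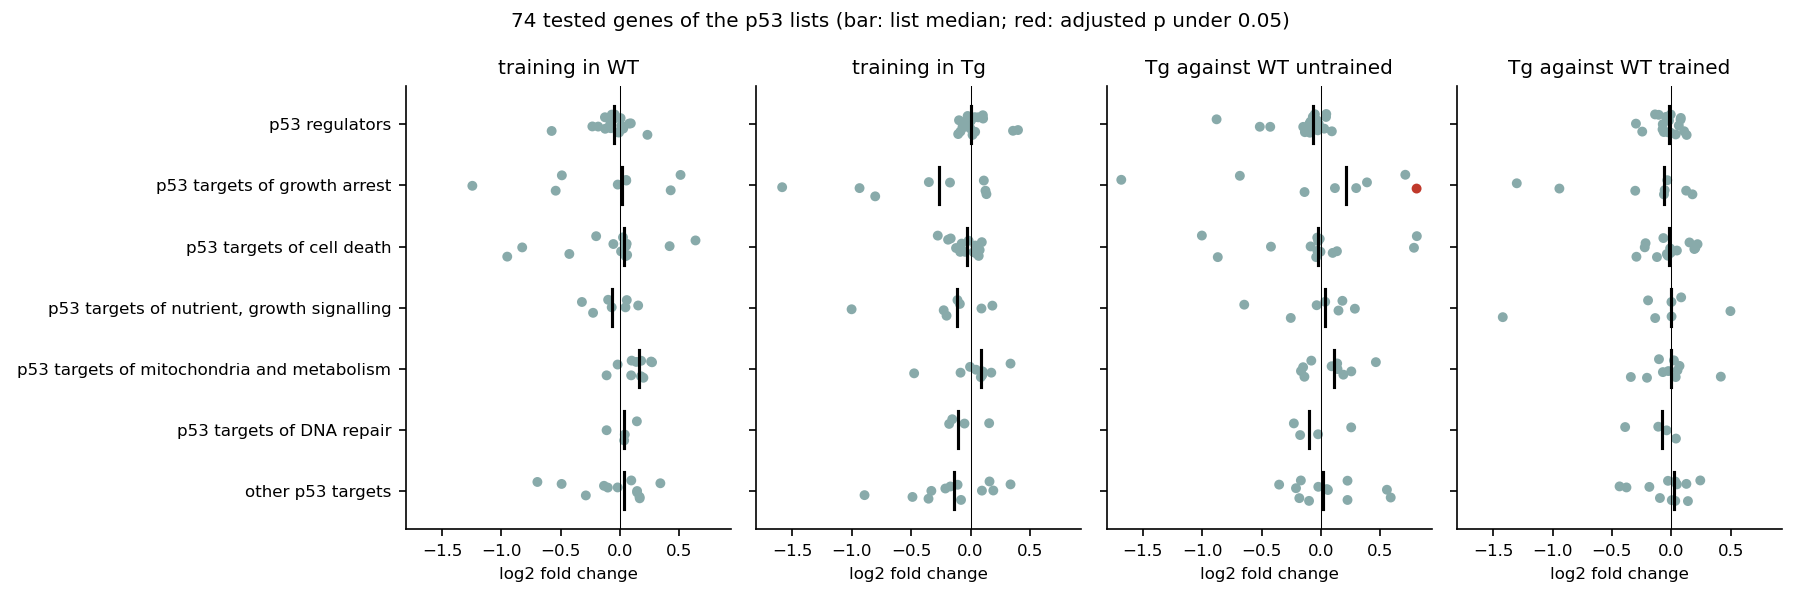
Fitted log2 fold changes (x axis) of the 74 tested genes in 7 lists of p53 regulators and targets, 1 panel per pairwise comparison, with list medians as bars. Plk2, among the growth arrest targets in Tg against WT untrained, is the sole red point (adjusted p under 0.05), and the list medians lie between -0.26 and 0.21.

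WT untrained replicate 2 carried the largest single deviation of the p53 genes. It was the highest of 16 libraries for 7 of the 10 (Trp53, Mdm2, Cdkn1a, Bax, Bbc3, Eda2r and Sesn2) and the lowest for Ccng1. This library was highest for 19.6% of all tested genes (3421) and lowest for 3498. Scaling by library totals gave 8 of 10 highest, with Ccng1 no longer lowest, and median-ratio size factors gave 7. Over the 74 genes of the p53 lists it was highest for 25 (33.8%), and over the 47 tested targets outside the 10 genes for 10 (21.3%).

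The excess in this library was largest for Gadd45a, a growth arrest and repair gene, at 52.6 CPM against at most 9.90 CPM elsewhere, which is 5.31 times the next library. Eda2r at 3.53 times, Trp53inp1 at 2.93 times (61.7 CPM), the p53 relative Trp63 at 2.39 times, Rps27l at 1.64 times and Plk3 at 1.54 times followed. These are 6 of 74 genes (8.11%) at more than 1.5 times the next library, against 1.83% of all tested genes. Ccng1, Plk2, Tnfrsf10b and Sco2 were not highest there. Of 6 tested genes that answer to denervation, 3 were highest in this library: Runx1 had 15.1 CPM against at most 4.64 elsewhere, the acetylcholine receptor subunit Chrna1 18.52 against at most 7.65 and Myog 3.04 against at most 2.62. The other 3 were not highest there, with Ncam1 at 1.14, Myh8 at 0.84 and Myh3 at 0.70 times the median of the other 15 libraries. The ubiquitin ligases of muscle wasting were high as well, Fbxo32 at 758 CPM against at most 233 and Trim63 at 277 CPM against at most 150. Of its 12 marker sums, those of satellite cells and adipocytes were the highest of 16 libraries, and those of muscle fibres, endothelium, smooth muscle and pericytes, Schwann cells and lymphocytes the lowest, and the part of these in the p53 genes was not tested.

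**Figure D4:**
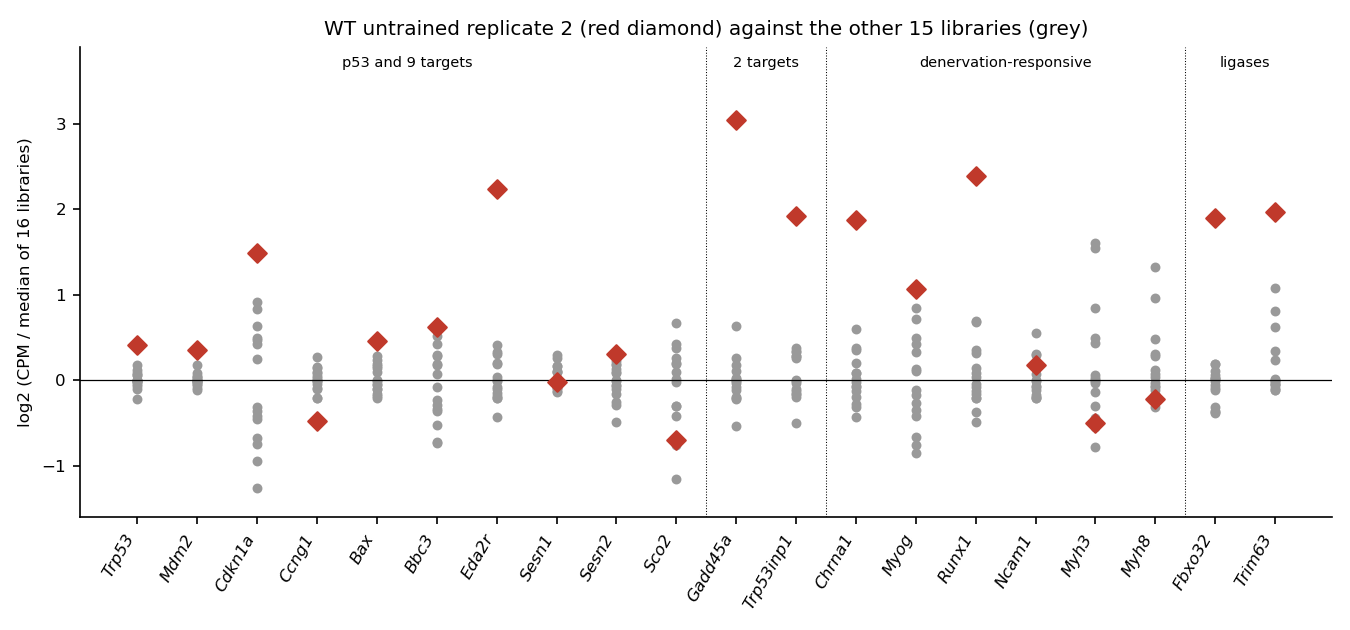
Log2 of each library's CPM over the median of the 16 libraries (y axis) for the 10 p53 genes, Gadd45a and Trp53inp1, 6 denervation-responsive genes and the ubiquitin ligases Fbxo32 and Trim63. WT untrained replicate 2 (red diamond) lies above the other 15 libraries (grey) for 7 of the 10 p53 genes and below them for Ccng1, and farthest above for Gadd45a.

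The 10 genes did not vary as a block over the libraries. Of their 45 pairs, 24 had a positive Pearson r of log2(CPM + 0.5) over the 16 libraries, with a median r of 0.08, and of -0.04 without WT untrained replicate 2. The highest r of the 45 was that of Mdm2 and Eda2r, at 0.86, and 0.56 without that library. Mdm2 and Bax (0.69 and 0.45) and Bax and Sesn2 (0.59 and 0.48) also stayed above 0. Trp53 and Mdm2 had an r of 0.51, which was -0.20 without that library, and Trp53 and Cdkn1a had 0.50 and 0.18. Cdkn1a and Sesn1 were a pair whose likeness did not fall, with 0.52 and 0.69. These values are descriptions of libraries that share groups and depth.

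The transcripts most like Cdkn1a among 7499 compared, over all 16 libraries, were Pan3 (r = 0.93), Arrdc3 (0.93), Nfe2l2 (0.92), Hip1r (0.91) and Nadk (0.91), and their r without WT untrained replicate 2 was between 0.87 and 0.91. Those most like Trp53 were Polr3b (0.85), Ehbp1 (0.85), Pa2g4 (0.83), Zwint (0.82) and Tpd52l2 (0.81), which dropped to between 0.52 and 0.64 without it. Those most like Eda2r were Tsr1 (0.96), Psmd2 (0.95), Rbfox1 (0.95), Dop1b (0.95) and Gtpbp4 (0.94), which dropped to between 0.57 and 0.79.

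Cdkn1a was also set beside 10 glucocorticoid-responsive and Foxo genes, because WT trained replicates 3 and 4 were above replicates 1 and 2 for Cdkn1a and for 9 of the 10, all but Fbxo32. This was noticed in the values. The share of all tested genes with the same split of WT trained libraries is not given, so the count does not set the list apart. Fkbp5, a co-chaperone that the glucocorticoid receptor raises, measured 12.5, 12.6, 33.8 and 40.9 CPM in WT trained, where Cdkn1a had 1.38, 0.787, 3.56 and 3.37 CPM. Ddit4, an mTORC1 inhibitor that both p53 and glucocorticoids are known to raise, measured 14.8, 11.7, 54.6 and 41.3 CPM there. It belongs to the wider p53 target lists and not to these 10 genes. In Tg trained Fkbp5 had 16.3, 9.91, 12.5 and 10.1 CPM and Ddit4 19.9, 8.54, 7.14 and 10.2 CPM. Replicates 3 and 4 of WT trained were thus high and replicates 1 and 2 low for all of Cdkn1a, Fkbp5 and Ddit4. Over the 16 libraries Cdkn1a had an r of 0.82 with Fkbp5, 0.84 with Mt2 and 0.87 with Ddit4. Without WT untrained replicate 2 these were 0.83, 0.82 and 0.905. With Sgk1, Trim63 and Fbxo32 of the same list, Cdkn1a had 0.61, 0.74 and 0.51, and 0.405, 0.61 and 0.04 without that library.

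Over both training states, 10 of the 10 genes of that list were below 0 in Tg against WT, with a median log2 fold change of -0.52 beside 0.00 for all tested genes, and 3 were called lower, where 1.12% of all genes were called in either direction: the metallothionein Mt2 at -2.37 (adjusted p = 0.0221), Fkbp5 at -1.02 (adjusted p = 0.0352) and the kinase Sgk1 at -0.49 (adjusted p = 0.0203), all by edgeR. In fits that left out 1 library these calls stood in 14, 5 and 14 of 16. The WT trained libraries whose split led to this list are part of this comparison. Its values are therefore not independent of how the list was picked, and they are given as a description. Cdkn1a had -0.81 and Ddit4 -1.03 (adjusted p = 0.106) in the same comparison. Trp53 had -0.08 (95% interval -0.24 to 0.08) and Mdm2 -0.10 (-0.22 to 0.01). The part of these other regulators in the Cdkn1a values was not tested.

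**Figure D5:**
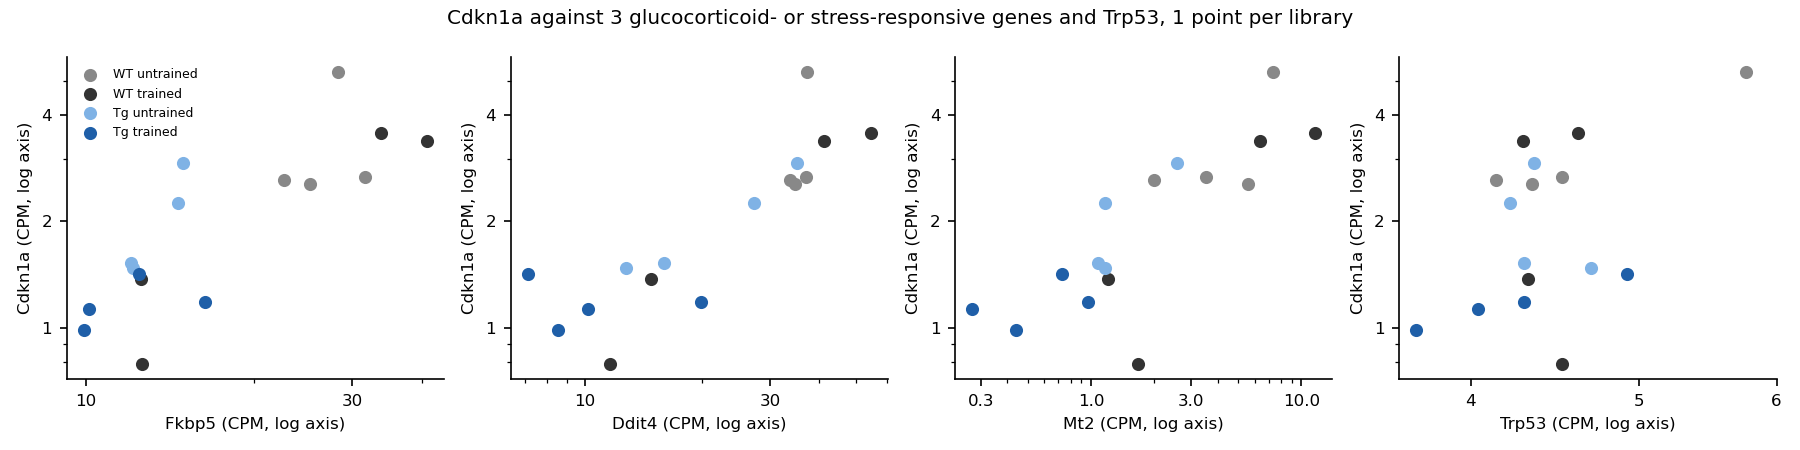
Cdkn1a (y axis, CPM, log scale) against Fkbp5, Ddit4, Mt2 and Trp53 (x axes, CPM, log scale), 1 point per library, coloured by group. Ddit4 is from the wider p53 target lists. WT trained libraries lie both at the low end (Cdkn1a at 0.787 and 1.38 CPM) and at the high end (3.37 and 3.56 CPM) of the Fkbp5 and Ddit4 panels, while Trp53 has a narrow range.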

How the data were processed

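Per the submitters' processing notes, the authors used STAR 2.7.8a and RSEM 1.3.2 with genome build mm10, and the deposited table holds RSEM expected counts per gene, 1 column for each of 16 libraries. The annotation release, strand setting and filters are not given in the sources used here. All gene identifiers of the 10 genes matched GENCODE M21. The deposited expected counts (12.48% not whole) were rounded. Genes were filtered by edgeR's filterByExpr, scaled by TMM and fitted with edgeR 4.0.16 (quasi-likelihood, R 4.3.3) in 1 model with a mean for each of the 4 groups on all libraries, and 7 contrasts were tested with Benjamini-Hochberg adjustment over 17490 genes. On simulated training in WT (17299 genes) the test recovered 92 of 100 genes at 2-fold and 99 of 100 at 4-fold, with 5 false calls. The changed genes averaged at least 1 CPM, which Bbc3 did not, and no simulated library was made to stand apart as WT untrained replicate 2 did. The recovery is therefore not the power of the test for the 10 p53 genes. Alternatives were DESeq2 1.42.0, limma-voom (limma 3.58.1), other scaling and filters, and omission of libraries. The mean correlation of deviations was 0.015 over 24 pairs with the same replicate number (over 0.1 in 8) and -0.004 over 72 other pairs (over 0.1 in 11). This does not settle whether the numbers pair libraries, and the main model had no replicate block. Replicates differed by more than counting noise, with a chi-square per degree of freedom of at least 7.06. Genes named were the 10 p53 genes, Triap1 and Chchd4, per wider list and comparison up to 4 called genes or else up to 2 with the smallest p, and the 5 most alike to Cdkn1a, Trp53 and Eda2r among genes averaging 5 CPM or more. Gadd45a, Trp53inp1, Trp63, Rps27l and Plk3 in a single library, and Trim63, Gdf15 and Pmaip1, were named after their values were seen. A motif scan around each start on the genome was planned, and RefSeq promoter windows were scanned in its place. Other scalings of WT untrained replicate 2 were tried after seeing the data. The members and lists were chosen with earlier results of these data known.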

Additional observations from a re-analysis of the deposited data

Results flagged for a closer look

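Single libraries far from the other 3 of their group were looked for in 48 groups of 4, covering 12 genes (the 10 p53 genes, Triap1 and Chchd4), by the gap to the nearest library over the range of the group (critical value 0.829). Chance alone flags about 1 group in 20. This picked out 4. Mdm2 measured 30.45 CPM in WT untrained replicate 2, against 23.52 to 24.69 CPM in the others. Cdkn1a measured 5.297 CPM in that library, against 2.546 to 2.659 CPM. Eda2r measured 59.98 CPM there, against 12.05 to 14.59 CPM. Sco2 measured 2.12 CPM in WT trained replicate 1, against 0.7873 to 0.9988 CPM.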

How the results depend on the processing

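The count of called genes among the 10 p53 genes was 0 under 10 other settings apart from single-library omissions, 9 of them run on all 7 comparisons and 1 on the 4 pairwise ones, the replicate block included (0 of 70 tests, lowest adjusted p = 0.16). With 1 library left out it was 0 to 1 for Tg over both training states and 0 in the other 6. Over the 74 genes of the p53 lists, the count for Tg against WT untrained was 1, and 2 with DESeq2, 0 with the replicate block and 0 without the libraries high in Myh7. For training over both genotypes it was 1, and 0 with limma-voom, 0 with the replicate block and 2 without the libraries high in Alb. Without the libraries high in Myh7 the called gene was Hipk2 (0.434, adjusted p = 0.0415, edgeR) in place of Dram1 (-0.749, adjusted p = 0.174). With limma-voom Dram1 had -0.774 (adjusted p = 0.0616). For training in Tg the count was 0, and 2 with DESeq2, 1 without the libraries high in Alb and 1 with the libraries of the contrast alone. For Tg over both training states it was 0, and 1 with no filter and 5 with DESeq2. With 1 library left out these counts ran from 0 to 2, 0 to 2, 0 to 2 and 0 to 3 in the same order. Calls among all tested genes moved too. For Tg against WT untrained they were 130, and 442 with DESeq2, 66 with the replicate block and 32 without the libraries high in Myh7. For training over both genotypes they were 80, and 58 with limma-voom, 16 with the replicate block and 584 without the libraries high in Alb. For training in Tg they were 0, and 132, 104 and 123 in the order above. For Tg over both training states they were 196, and 224 with no filter and 644 with DESeq2. The cause was not tested. The replicate block, which joins libraries that share a replicate number, gave Plk2 0.80 (adjusted p = 0.0533) in Tg against WT untrained and Dram1 -0.79 (adjusted p = 0.0933) in training over both genotypes.

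These values changed sign. WT untrained replicate 2 is among the libraries with over 10 CPM of Myh7, a slow fibre myosin, and among those with over 10 CPM of Alb (liver). Its sum of 6 slow-twitch fibre markers, Myh7 included, was nevertheless low, at 23.91 CPM and rank 15 of 16 libraries. Without the libraries high in Myh7, training in WT gave Trp53 0.009, Mdm2 0.061, Ccng1 -0.113, Eda2r 0.033 and Gadd45a 0.11, training in Tg gave Eda2r 0.086, Triap1 -0.029 and Plk2 0.012, and Tg against WT untrained gave Bax 0.19 and Bbc3 0.14. Without the libraries high in Alb, training in WT gave Trp53 0.042, Mdm2 0.079, Ccng1 -0.063, Eda2r 0.19, Triap1 0.022 and Gadd45a 0.30, Tg against WT untrained gave Bax 0.086 and Bbc3 0.29, and the difference of the training responses gave Eda2r -0.23. With the libraries of the contrast alone, Bax was -0.006 for training in WT.

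Under omission of 1 library, training in WT ranged from -0.14 to 0.028 for Trp53, -0.092 to 0.044 for Mdm2, -0.087 to 0.15 for Ccng1, -0.09 to 0.135 for Bax, -1.054 to 0.088 for Eda2r, -0.28 to 0.40 for Sco2, -0.072 to 0.024 for Triap1 and -1.53 to 0.25 for Gadd45a. Training in Tg ranged from -0.128 to 0.006 for Trp53, -0.009 to 0.047 for Mdm2 and -0.211 to 0.055 for Eda2r. Tg against WT untrained ranged from -0.154 to 0.019 for Trp53, -0.184 to 0.044 for Bax, -0.25 to 0.16 for Bbc3 and -0.09 to 0.024 for Sesn1, and Tg against WT trained from -0.142 to 0.003 for Trp53. The difference of the training responses ranged from -0.594 to 0.028 for Cdkn1a and from -0.139 to 1.008 for Eda2r. Depth limits Bbc3 (11 to 32 counts) and Sco2 (30 to 114 counts) the most.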
